A study of Mus musculus with 24 samples.

Results

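Respiratory complexes II to V of the mitochondrial inner membrane were examined as 41 nuclear-encoded transcripts in denervated and control calf muscle. The members were the annotated mouse genes named Sdha, Sdhb, Sdhc, Sdhd, Cyc1 or Cycs, or whose symbol begins with Uqcr, Cox4, Cox5, Cox6, Cox7, Cox8 or Atp5. The array annotation named 45 such genes, and 41 of them had a probe with a detection p-value under 0.05 on at least 3 of 24 arrays, out of 11317 genes that passed the same filter. Complex II had 3 members, complex III 7, complex IV 15 and complex V 16. The flavoprotein subunit Sdha, the Rieske protein gene Uqcrfs1 and the testis isoforms Cox7b2 and Cox8c had probes that missed the filter, so nothing is said of their change. No probe of the annotation was named for Cycs, Uqcr10, Atp5h or Cox7a2l. The filter needed signal on only 3 arrays, so a member could pass through 1 bright group. In fact 39 members were detected on all arrays, Cox4i2 on 14 and Cox6b2 on 6.

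Transcripts were read on 1-colour Illumina BeadChips in triceps surae, the calf muscle group, of C57/Bl6 mice aged 6 months. Wild type mice and mice lacking MuRF1, the muscle ubiquitin ligase encoded by Trim63, were compared 3 or 14 days after resection of 1 sciatic nerve, with unoperated littermates as controls. That made 8 groups of genotype, treatment and day with 3 samples each. The construction of the MuRF1 knockout is not given in the sources used here. The labels do not say that samples within a group were taken from different mice, so a p-value reflects sample-to-sample spread that may be technical. Controls had no sham operation, and an effect of surgery cannot be told apart from that of nerve loss. Trim63 read 9.05 to 11.37 in the 12 wild type samples on the log2 scale and 4.83 to 5.86 in the 12 knockout samples. Its probe was detected on 0 of 6 knockout arrays at day 3 and on all 6 at day 14. Where that probe lies with respect to the deletion is unknown. All 10 skeletal muscle fibre markers were detected on every array. Array medians of raw intensity ran from 124.7 to 199.8, with 15532 to 18755 of 46632 probes detected. Replicates 2 and 3 of the denervated knockout group of day 3 stood apart from the day 3 arrays with 18434 and 18520 detected probes. No further day 3 array exceeded 17055, while day 14 arrays reached 18755. The main results that rest on that pair are given with and without it. Leaving the pair out leaves 1 sample in that group, which is then assumed to vary like the other groups, so part of any loss of calls comes from the smaller group.

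The respiratory chain passes electrons from the citric acid cycle and fatty acid oxidation to oxygen. Complex II is succinate dehydrogenase, complex III hands electrons to cytochrome c, complex IV is cytochrome c oxidase, which reduces oxygen, and complex V is the ATP synthase that uses the proton gradient. Complexes III, IV and V join nuclear-encoded subunits to subunits encoded in mitochondrial DNA, whereas complex II is wholly nuclear-encoded. Several complex IV subunits exist as a heart and muscle isoform and a more widely expressed isoform, which makes calf muscle a tissue in which both can be followed. Levels below are log2 normalized intensities, and a change is the denervated minus the control mean of the same genotype and day, so a negative value is a fall. A member is called lower or higher at a Benjamini-Hochberg adjusted p under 0.05 over all 11317 genes, from limma fitted to all 24 arrays. In whole muscle, fewer cells of a type and less RNA per cell cannot be told apart.

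Transcripts of all 4 complexes were lower after denervation in both genotypes. In wild type muscle 27 of 41 members fell at day 3 and none rose, where 17.5% of all genes fell and 20% rose. In knockout muscle 32 fell at day 3 and none rose, against 15.6% and 20.2% of all genes. At day 14, 25 fell and 1 rose in wild type muscle, against 18.6% and 22.9%, and 19 fell and 1 rose in knockout muscle, against 17.7% and 19%. The median change over the members was -0.54 and -0.74 at day 3 and -0.57 and -0.33 at day 14, wild type first. Over all genes these medians were 0.01, 0.04, 0.05 and 0.03. All 3 denervated samples lay below all 3 controls for 31 members in wild type and 33 in knockout muscle at day 3, and for 31 and 24 at day 14. The corresponding shares of all genes were 24%, 16.9%, 23.5% and 24.9%. Without replicates 2 and 3 of the denervated knockout group of day 3, and so with 1 denervated sample, 39 of 41 values there lay below 0. The median was then -0.54. With the number of detected probes as a covariate 12 members fell in knockout muscle at day 3, 11 of them among the 32. In that comparison 17055 to 18520 probes were detected in denervated samples and 15532 to 16718 in controls. The number thus went with treatment, so the covariate fit cannot separate the 2, and a call lost in it cannot be assigned to either. The SE was also larger in that fit, for Atp5g1 0.17 against 0.11. With any 1 sample left out, 21 of 27, 30 of 32, 19 of 26 and 13 of 20 calls of the 4 comparisons were kept throughout.

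**Figure D1:**
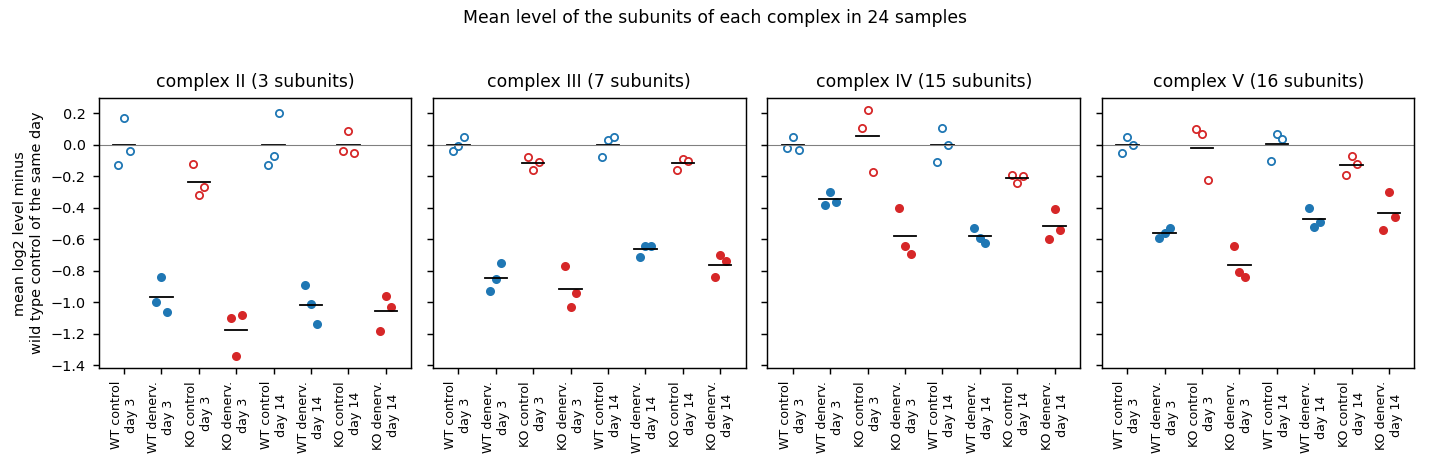
Mean log2 level of the 3, 7, 15 and 16 measured subunits of complexes II, III, IV and V in each of 24 samples, as the difference from the mean wild type control of the same day; blue is wild type (WT), red knockout (KO), open points are controls, filled points denervated samples, and black bars group means of 3 samples. Every denervated sample lies below every control sample of the same complex, genotype and day.

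The size of the change differed among the complexes as measured. At day 3 in wild type muscle the median change was -0.97 for complex II, -0.94 for complex III, -0.41 for complex IV and -0.60 for complex V. In knockout muscle at day 3 the medians were -0.93, -0.75, -0.54 and -0.73 in the same order, and -0.84, -0.57, -0.42 and -0.59 with replicate 1 as the 1 denervated sample. At day 14 they were -0.96, -0.65, -0.48 and -0.57 in wild type and -1.13, -0.75, -0.25 and -0.27 in knockout muscle. Complex II thus had the largest median in each of the 4 comparisons, over only 3 transcripts, and differences between complexes were not tested. The 8 members with a median raw intensity over 40000, whose changes were small as given below, were all in complexes IV and V. The part of probe brightness in these medians was not tested. Relative to wild type controls of the same day, the mean of the complex II members lay at -0.84 to -1.06 in the wild type denervated samples of day 3 and at -0.89 to -1.14 at day 14. In the knockout denervated samples it lay at -1.08 to -1.34 and at -0.96 to -1.18. The control samples of both genotypes stayed between -0.32 and 0.20.

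The call pattern across the 4 comparisons was uneven within complexes. Lower in all 4 were 15 of the 41 members, where 5.81% of all genes were. They were the complex II members Sdhb, Sdhc and Sdhd, the complex III members Cyc1, Uqcr11, Uqcrc1 and Uqcrc2, the complex IV members Cox5a, Cox6b1, Cox7a1 and Cox8b, and the complex V members Atp5d, Atp5g1, Atp5mpl and Atp5pb. A further 10 members fell in 3 of the comparisons. Called in none were 5 members, Cox6a2, Cox6b2, Cox6c, Atp5b and Atp5g3, where 30.6% of all genes were called in none. With any 1 sample left out, 11 of the 15 kept all their calls, and Cox6b1, Cox8b, Atp5d and Atp5mpl lost at least 1. Only 2 members rose in any comparison, Atp5o, read from a dim probe, in wild type and Cox8a in knockout muscle, both at day 14.

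**Figure D2:**
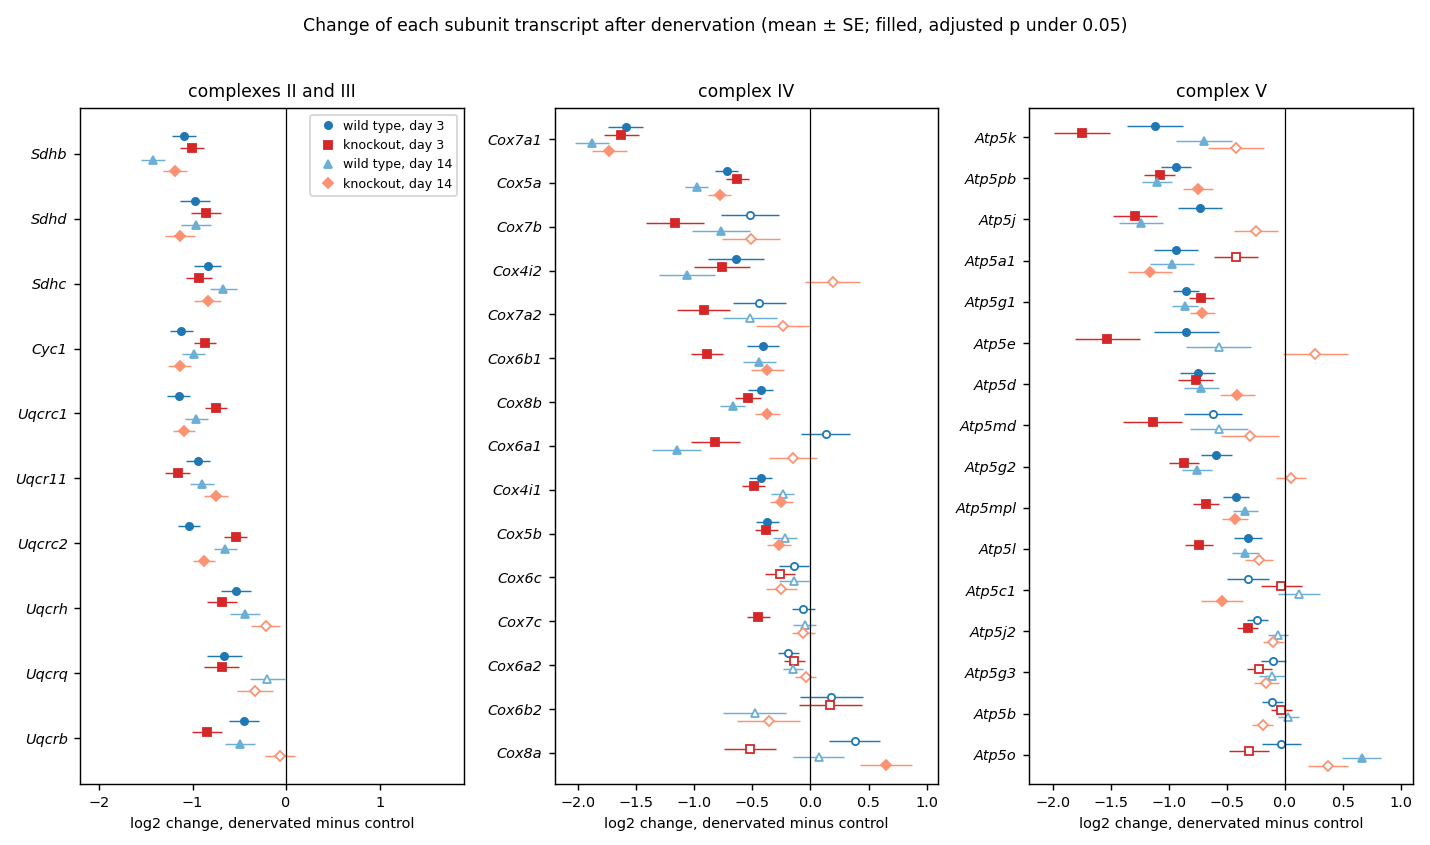
Log2 change with its SE for each of 41 subunit transcripts in the 4 denervation comparisons (3 against 3 samples each); filled symbols passed an adjusted p under 0.05 over all genes and open symbols did not. Cox7a1 lies farthest to the left in complex IV at -1.59 to -1.88, and a few subunits, among them Cox8a, Cox6a1 and Atp5e, spread across zero between comparisons.

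Succinate dehydrogenase, complex II, oxidises succinate in the citric acid cycle and passes the electrons to ubiquinone. Its iron-sulfur subunit Sdhb read 14.29, 14.70 and 14.36 in wild type controls of day 3 and 13.26, 13.38 and 13.45 after denervation. At day 14 it read 14.56, 14.63 and 14.93 in wild type controls and 13.38, 13.28 and 13.19 after denervation. The groups did not overlap in either genotype on either day. Sdhb fell 2.13-fold and 2.01-fold at day 3 and 2.68-fold and 2.29-fold at day 14, wild type first (SE 0.13 log2; highest limma adjusted p = 3.19e-06). A dimmer second Sdhb probe, detected on 13 of 24 arrays, changed by -0.89, -0.17, -0.39 and -0.34.

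The membrane anchor subunits Sdhc and Sdhd bind ubiquinone. Sdhc read 14.01 to 14.30 in wild type controls of day 3 and 13.03 to 13.57 after denervation, a fall of 0.84 ± 0.14 (SE) on the log2 scale. Its other changes were -0.93 in knockout muscle at day 3, -0.67 in wild type and -0.84 in knockout muscle at day 14. Sdhd changed by -0.97, -0.86, -0.96 and -1.13 in the order wild type and knockout at day 3, wild type and knockout at day 14 (SE 0.16). All 3 complex II transcripts fell in all 4 comparisons with no overlap between groups.

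Complex III is built around cytochrome b with the cytochrome c1 protein, encoded by Cyc1, and 2 large core proteins, encoded by Uqcrc1 and Uqcrc2. Cyc1 read 13.52, 13.62 and 13.66 in wild type controls of day 3 against 12.28, 12.63 and 12.51 after denervation. In knockout muscle of day 14 it read 13.75, 13.97 and 13.83 against 12.69, 12.75 and 12.69. Cyc1 was 2.18-fold and 1.83-fold lower at day 3 and 1.99-fold and 2.20-fold lower at day 14 (SE 0.12 log2), and the groups did not overlap in any of the 4 comparisons. The core proteins followed a like pattern: Uqcrc1 changed by -1.15, -0.75, -0.96 and -1.09, and Uqcrc2 by -1.04, -0.54, -0.65 and -0.88 (SE 0.12 each). Each value was past the threshold.

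The small complex III subunits gave different calls at day 14. Uqcr11, which sits by the Rieske protein, fell 1.91-fold and 2.23-fold at day 3 and 1.87-fold and 1.68-fold at day 14. The hinge protein Uqcrh, the ubiquinone-binding protein gene Uqcrb and Uqcrq fell in both genotypes at day 3, with changes between -0.45 and -0.85. In wild type muscle of day 3 the Uqcrb call was lost in 4 of 6 fits with 1 sample left out, and the Uqcrq call in 2. With 1 denervated sample left in the knockout group of day 3, Uqcrh, Uqcrb and Uqcrq changed by -0.30, -0.53 and -0.57. With the number of detected probes as a covariate they changed there by -0.33, -0.30 and -0.50, and none passed. At day 14 none of these 3 was called in knockout muscle, with changes of -0.22, -0.07 and -0.33, while Uqcrh and Uqcrb fell in wild type muscle by 0.44 and 0.49. The Uqcrh call there was lost in 5 of 6 fits with 1 sample left out, and the Uqcrb call in 1. For Uqcrb the change in knockout muscle was less negative at day 14 than at day 3 by 0.79 ± 0.22 (limma adjusted p = 0.0174). That value for Uqcrb was 0.17 with median centring, which moved the median of all genes to -0.51 in this comparison, and 0.46 with 1 denervated sample left at day 3, and passed under neither. It also missed the threshold without replicate 2 of the knockout denervated samples of either day, at 0.61 and 0.66.

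Cytochrome c oxidase, complex IV, carries its catalytic metal centres on subunits of mitochondrial DNA, which are not among the members here. The nuclear subunits surround that core. At day 3, 7 of 15 fell in wild type and 11 in knockout muscle, and at day 14, 7 and 6, with Cox8a higher in knockout muscle. The largest fall belonged to Cox7a1, the heart and muscle isoform of subunit VIIa. It read 15.02, 15.07 and 14.96 in wild type controls of day 3 and 13.39, 13.31 and 13.57 after denervation. At day 14 it read 14.72, 15.04 and 14.85 in wild type controls and 12.87, 13.09 and 13.02 after denervation. Knockout samples read 15.10, 15.28 and 14.83 in control and 13.76, 13.36 and 13.22 in denervated muscle at day 3. At day 14 they read 14.69, 14.74 and 14.61 against 12.79, 13.23 and 12.83. All control samples lay above all denervated samples. Cox7a1 was 3.01-fold and 3.08-fold lower at day 3 and 3.68-fold and 3.32-fold lower at day 14 (SE 0.15 log2; highest limma adjusted p = 4.92e-08).

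Cox5a, a matrix-side subunit, was the only complex IV member besides Cox7a1, Cox6b1 and Cox8b to fall in every comparison, with changes of -0.72, -0.63, -0.98 and -0.78 (SE 0.10). Cox6b1, on the intermembrane side, changed by -0.41, -0.89, -0.44 and -0.37. With 1 of 6 samples left out in turn, its wild type calls were lost in 4 fits at day 3 and 3 at day 14. Its knockout call of day 14 was lost in 5. Cox5b, the zinc-binding subunit, changed by -0.37, -0.38, -0.22 and -0.27 and missed the threshold in wild type muscle at day 14. The Cox5b call in knockout muscle of day 14 was lost in 5 of 6 such fits. Cox7b fell in knockout muscle at day 3 and in wild type muscle at day 14, by 1.17 and 0.77. Cox7c was called only in knockout muscle at day 3, where it fell by 0.45. With 1 denervated sample left in the knockout group of day 3 these knockout values were -1.02 for Cox7b and -0.27 for Cox7c. Cox6c was called nowhere, with changes between -0.14 and -0.26.

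Of the isoform pairs of complex IV, the promoters of both Cox7a and both Cox8 isoforms and of Cox6a1 are shown, since these are the transcripts on which the comparison of muscle and widely expressed isoforms turns. Each stretch is the 250 bases before the annotated transcript start, read 5′ to 3′ on the gene's strand, from the RefSeq promoter table of build GRCm38.p6. Cox7a1 lies at chr7:30183921-30184170 on the plus strand, and Cox7a2 at chr9:79759854-79760103, Cox8a at chr19:7217617-7217866, Cox8b at chr7:140900447-140900696 and Cox6a1 at chr5:115348959-115349208, all on the minus strand. Capitals mark matches, on either strand, to the motifs named after them.
Cox7a1: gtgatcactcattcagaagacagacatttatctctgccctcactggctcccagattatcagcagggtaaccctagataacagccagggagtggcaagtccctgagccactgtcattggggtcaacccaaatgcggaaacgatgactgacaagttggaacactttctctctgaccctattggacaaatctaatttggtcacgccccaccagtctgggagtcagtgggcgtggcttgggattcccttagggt
Cox7a2: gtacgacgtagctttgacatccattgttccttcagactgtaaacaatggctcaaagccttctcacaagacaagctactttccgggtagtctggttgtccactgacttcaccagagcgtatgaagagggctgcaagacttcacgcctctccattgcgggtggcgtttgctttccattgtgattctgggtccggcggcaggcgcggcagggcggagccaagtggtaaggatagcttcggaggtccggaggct
Cox8b: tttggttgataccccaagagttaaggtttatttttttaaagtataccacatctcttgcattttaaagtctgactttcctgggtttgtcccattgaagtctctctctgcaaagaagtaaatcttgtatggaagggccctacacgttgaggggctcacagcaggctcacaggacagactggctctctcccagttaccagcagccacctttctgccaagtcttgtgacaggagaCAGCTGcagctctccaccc
Cox8a: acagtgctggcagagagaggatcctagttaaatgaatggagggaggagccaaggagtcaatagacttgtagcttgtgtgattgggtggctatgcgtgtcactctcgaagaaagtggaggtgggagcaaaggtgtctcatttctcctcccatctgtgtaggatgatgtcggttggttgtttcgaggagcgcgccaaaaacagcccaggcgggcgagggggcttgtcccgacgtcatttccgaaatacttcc
Cox6a1: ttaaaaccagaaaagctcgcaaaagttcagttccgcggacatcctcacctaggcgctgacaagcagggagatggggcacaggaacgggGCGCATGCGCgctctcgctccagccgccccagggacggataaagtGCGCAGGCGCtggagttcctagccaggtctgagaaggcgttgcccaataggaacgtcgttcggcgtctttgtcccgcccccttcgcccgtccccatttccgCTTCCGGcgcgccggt

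Both strands were searched for 5 motifs. They were the nuclear respiratory factor 1 (NRF-1) site, the ETS site of the GA-binding protein CCGGAAG, the estrogen-related receptor site AAGGTCA, the muscle E-box CAGCTG and the TATA box TATAAA. Matches to different motifs overlapped in 0 members. In the Cox6a1 stretch there were NRF-1 matches beginning 162 bases before the start, on both strands, and 117 bases before it, and an ETS match 16 bases before it. The Cox8b stretch held the E-box, 19 bases before the start, and the Cox7a1, Cox7a2 and Cox8a stretches held none of the 5. Of the members, 30 had an entry in the table. The NRF-1 motif stood in 5 of them (16.7%), against 4.23% of the 27025 genes of the table, and the ETS motif in 8 (26.7%) against 7.83%. The receptor site, the E-box and the TATA box each stood in 2 (6.67%), against 4.7%, 14.7% and 14.3%. Genes of the table were not limited to those detected on these arrays, as the members were, so the shares are not a like comparison. A match is a description of the letters only, and its absence says nothing of the factor.

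Within each array the log2 level of the muscle isoform was set against that of its widely expressed partner. Because probes differ in affinity, only the change of this difference was read, by an exact two-sided permutation test that exchanged labels within genotype and day, over 12 control and 12 denervated samples. The Cox7a1 minus Cox7a2 difference was 4.14 to 5.03 in the controls and 2.91 to 3.83 in the denervated samples, with no overlap. It fell by 1.18 on average over the 4 genotype and day strata (exact permutation p = 1.25e-05, the smallest that the test can give; adjusted over 4 pairs, p = 5e-05). The change was -1.15, -0.70, -1.36 and -1.49 in the order wild type and knockout at day 3, wild type and knockout at day 14. Cox7a2 itself changed by -0.44, -0.92, -0.52 and -0.24 and was called lower only in knockout muscle at day 3, where the groups overlapped. With 1 denervated sample left in that group the Cox7a2 value was -0.54 and did not pass, and the change of the difference was -0.77 in place of -0.70.

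For subunit VIII the muscle isoform Cox8b fell in all 4 comparisons, by 0.43, 0.54, 0.67 and 0.37, and the widely expressed Cox8a was called lower in none. The Cox8b call in knockout muscle of day 14 was lost without replicate 3 of the denervated samples (limma adjusted p = 0.0535). Cox8a read 11.43, 11.79 and 11.28 in wild type controls of day 14 and 11.44, 11.62 and 11.64 after denervation. In knockout muscle of day 14 it read 10.96, 10.90 and 11.11 in controls and 11.51, 11.87 and 11.53 after denervation, 1.57-fold higher with no overlap (limma adjusted p = 0.0278). The limma call was lost on leaving out replicate 1 or 2 of its controls or replicate 2 of its denervated samples (limma adjusted p = 0.069, 0.0823 and 0.119). The Cox8b minus Cox8a difference fell by 0.65 on average (exact permutation p = 4e-04; adjusted over 4 pairs, p = 8e-04). It changed by -0.81 in wild type and -0.02 in knockout muscle at day 3, the latter -0.47 with replicate 1 as the 1 denervated sample, and by -0.73 and -1.02 at day 14.

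Subunit VIa behaved differently as measured. The muscle isoform Cox6a2 changed by -0.19, -0.14, -0.15 and -0.04 and was called in no comparison. The Cox6a2 probe had a median raw intensity of 58213, in the range where changes were small over all genes, as given below, and the Cox6a1 probe 2816. The part of brightness in this pair was not tested. The widely expressed partner Cox6a1 changed by 0.13 in wild type and -0.82 in knockout muscle at day 3, and by -1.15 and -0.15 at day 14. The knockout value of Cox6a1 at day 3 was -0.35 with 1 denervated sample left and turned to 0.08 with the number of detected probes as a covariate, and passed under neither. The Cox6a2 minus Cox6a1 difference therefore moved by -0.32, 0.68, 1 and 0.11, with a mean of 0.37 (exact permutation p = 0.0326; adjusted over 4 pairs, p = 0.0434). With median centring the mean was 0.05 (exact permutation, adjusted p = 0.736). The exact permutation call was lost on leaving out any of 17 of the 24 samples. Means over all 24 such fits were 0.31 to 0.42. The hypoxia-linked isoform Cox4i2 was near background and its difference from Cox4i1 changed by -0.21 (exact permutation p = 0.18, same value adjusted). Cox4i1, the main form of subunit IV, changed by -0.43, -0.49, -0.24 and -0.25, and the third value was not past the threshold (limma adjusted p = 0.0505). The call on the fourth was lost in 6 of 6 fits with 1 sample left out.

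**Figure D3:**
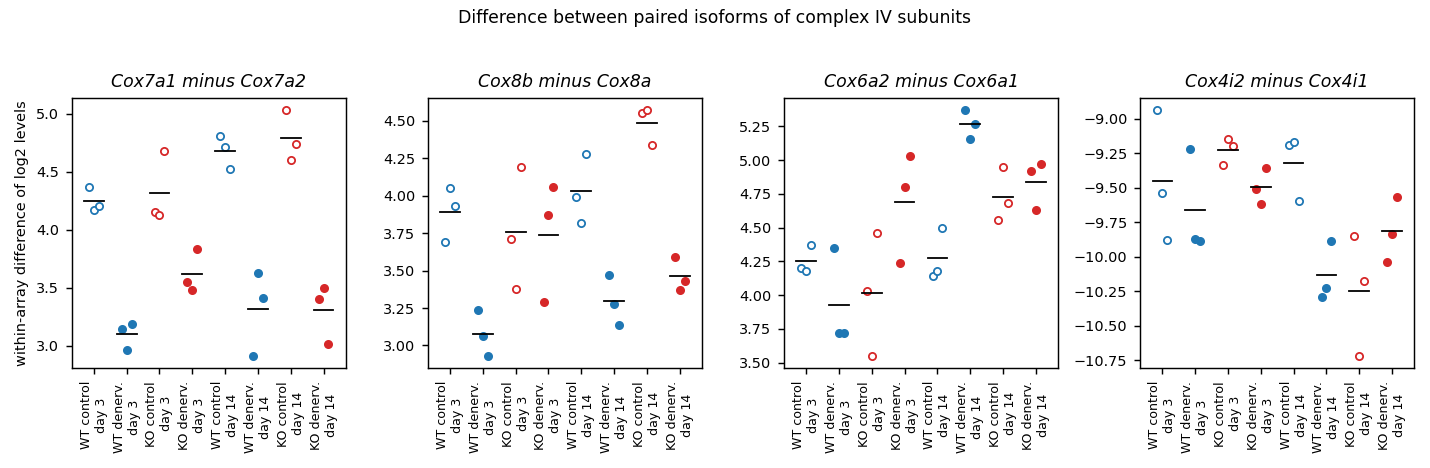
Within-array difference in log2 level between the muscle or conditional isoform and its widely expressed partner, for 4 pairs of complex IV subunits in 24 samples; blue is wild type (WT), red knockout (KO), open points controls, filled points denervated, bars group means of 3 samples, and each panel has its own axis. The Cox7a1 minus Cox7a2 difference is 4.14 to 5.03 in all controls and 2.91 to 3.83 in all denervated samples, whereas the other pairs overlap.

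Cox4i2 and Cox6b2, the testis-enriched form of subunit VIb, were at the edge of detection. Cox4i2 read 6.33, 6.59 and 6.10 in wild type controls of day 14 and 5.21, 5.21 and 5.42 after denervation, where no array detected it, so that it was at least 1.71-fold lower (limma adjusted p = 0.00101). In knockout muscle of day 14 it was detected on 1 of 3 control and 1 of 3 denervated arrays. Cox6b2 read 4.80 to 6.24 over all 24 samples, and no fold is given for it.

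The ATP synthase, complex V, has a catalytic head that makes ATP, a central stalk, a ring of c subunits that turns in the membrane, and a peripheral stalk that holds the head still. Of 5 members of the head and central stalk, 3 fell in wild type and 2 in knockout muscle at day 3, and 2 and 3 at day 14. The alpha subunit gene Atp5a1 changed by -0.94, -0.42, -0.97 and -1.16, and the second value did not pass. A second Atp5a1 probe, detected on all 24 arrays, gave -1.21, -1.34, -0.79 and -1.18. With the number of detected probes as a covariate the knockout value of day 3 was -0.94 on the probe used, and passed. It was -0.74 with 1 denervated sample left in that group. The delta subunit gene Atp5d fell in all 4, by 0.75, 0.77, 0.72 and 0.41. With the covariate the knockout value of Atp5d at day 3 was -0.33 and did not pass, and with 1 denervated sample left it was -0.58. Its knockout call of day 14 was lost in 4 of 6 fits with 1 sample left out. The beta subunit gene Atp5b, the catalytic subunit, was called in none, with changes between -0.19 and 0.03. The gamma subunit gene Atp5c1 fell only in knockout muscle at day 14, by 0.54, and a dim second probe detected on 7 arrays gave -0.37, -0.61, -0.84 and -0.93.

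The c ring is encoded by 3 genes, Atp5g1, Atp5g2 and Atp5g3, which yield the same mature protein. Atp5g1 fell in every comparison, by 0.85, 0.72, 0.86 and 0.71 (SE 0.11). Atp5g3 was called in none, with changes of -0.10, -0.22, -0.11 and -0.16. Atp5g2 fell by 0.59, 0.87 and 0.76 but changed by 0.05 in knockout muscle at day 14. The 3 genes of a single protein thus gave 3 patterns of calls, and differences between the genes were not tested. The Atp5g3 probe had a median raw intensity of 46465, in the range where changes were small over all genes, as given below.

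Of the peripheral stalk, the b subunit gene Atp5pb fell in all 4 comparisons by 0.94, 1.08, 1.1 and 0.75, and its 3 probes agreed in direction in each. Atp5j, the coupling factor 6 gene, changed by -0.73, -1.29, -1.24 and -0.25. A dim second Atp5j probe, detected on 12 arrays, gave -0.25, 0.29, 0.02 and -0.79. Atp5o, which encodes the subunit that confers oligomycin sensitivity, read 6.5, 6.69 and 6.74 in wild type controls of day 14 and 7.15, 7.39 and 7.36 after denervation. It was 1.58-fold higher with no overlap (limma adjusted p = 0.00394), and its other changes were -0.03, -0.31 and 0.37. The Atp5o probe was dim, with a median raw intensity of 263 against 197 for Cox4i2, though detected on all 24 arrays, so its fold is less certain. Of the 5 small membrane subunits, 3 fell in wild type and all 5 in knockout muscle at day 3, and 3 and 1 at day 14. With 1 denervated sample left in the knockout group of day 3, 3 of the 5 were called there.

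The largest falls in complex V were among small subunits in knockout muscle at day 3. Atp5k, the e subunit gene, read 12.15, 12.20 and 11.15 in controls and 10.56, 10.00 and 9.68 after denervation, 3.37-fold lower (limma adjusted p = 7.54e-06). Atp5e, the epsilon subunit gene, read 10.56, 10.57 and 9.20 against 8.90, 8.56 and 8.28, 2.89-fold lower (limma adjusted p = 0.000182). Replicate 3 of these controls lay below the other controls for both genes, yet above all denervated samples. With replicate 1 as the 1 denervated sample, Atp5k changed by -1.27 and Atp5e by -1.21, and both passed. With the number of detected probes as a covariate they changed by -0.84 and -0.57, and neither passed. Wild type samples of day 3 read 11.56, 11.69 and 11.66 against 10.24, 10.53 and 10.76 for Atp5k, 2.18-fold lower. A second Atp5k probe, detected on all 24 arrays, gave -0.92 in wild type and -1.31 in knockout muscle at day 3. The probe used gave -1.12 and -1.75.

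Few members, and few of all genes, were called between knockout and wild type samples when compared directly. In controls of day 3 none of 41 was called, with 3 at an unadjusted p under 0.05, where 0.327% of all genes were lower and 0.194% higher. In controls of day 14, 2 were lower in the knockout, against 2.57% of all genes lower and 2.94% higher, namely Cox4i2 by 0.96 and Atp5j by 0.65. With 1 of the 6 samples left out in turn, the Cox4i2 call was lost in 4 cases and the Atp5j call in all 6. In denervated muscle of day 3, 2 were lower, against 3.38% of all genes lower and 3.78% higher, namely Uqcrb by 0.62 and Cox6a1 by 0.71. Each of these calls was lost in 4 of 6 cases with 1 sample left out, without replicate 2 or 3 of either group. Without replicates 2 and 3 of the knockout group together, which leaves 1 knockout sample, the values were -0.29 and -0.24. In denervated muscle of day 14 none was called, with 4 at an unadjusted p under 0.05, where 4.21% of all genes were lower and 2.7% higher. The 95% confidence interval of a genotype difference reached about 0.30 to either side of the estimate, at the median over members, so differences of that size could be missed with 3 samples a group.

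Whether denervation changed a member differently in the 2 genotypes was tested as an interaction. At day 3 none of 41 was called, with 7 at an unadjusted p under 0.05 and a lowest adjusted p of 0.125, where 0.433% of all genes were called negative and 0.645% positive. Leaving out replicate 3 of the knockout controls gave 5 calls there, and leaving out replicate 1 of the knockout denervated samples gave 4. At day 14, 4 members had a less negative change in knockout muscle, against 4.58% of all genes with a positive call and 7.93% with a negative one: Cox6a1, Cox4i2, Atp5g2 and Atp5j. None was called in the other direction.

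Atp5g2 read 13.27, 13.51 and 13.14 in wild type controls of day 14 and 12.47, 12.47 and 12.69 after denervation. Knockout controls read 12.86, 12.84 and 12.95 and denervated samples 12.88, 13.08 and 12.86. The wild type groups did not overlap and the knockout groups did, and all knockout controls lay below all wild type controls. The change differed between genotypes by 0.81 ± 0.18 (limma adjusted p = 0.00761), and the call held with any 1 sample left out.

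Cox6a1 read 11.72, 11.87 and 11.44 in wild type controls of day 14 and 10.48, 10.59 and 10.51 after denervation, 2.22-fold lower. Knockout controls read 11.23, 10.90 and 11.13 and denervated samples 10.83, 11.19 and 10.78, with overlap. The change differed by 1 ± 0.30 (limma adjusted p = 0.0358), a call lost on leaving out any of 8 of the 12 samples of day 14. Values over all 12 such fits were 0.87 to 1.12. A second probe of like brightness gave -1.01 and -0.15 against -1.15 and -0.15 with the probe used. In wild type muscle the change at day 14 was also more negative than at day 3, by 1.29 ± 0.30 (limma adjusted p = 0.00737). That was the only member whose change differed between days in wild type muscle, where 6.2% of all genes had a negative call and 7.46% a positive one.

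Atp5j read 10.80, 11.18 and 10.72 in wild type controls of day 14 and 9.73, 9.42 and 9.83 after denervation, against 10.38, 10.27 and 10.10 and 9.99, 10.29 and 9.72 in the knockout. Its change differed by 0.99 ± 0.27 (limma adjusted p = 0.0219), but by 0.10 (adjusted p = 0.845) when both its probes were averaged. The call was also lost without replicate 2 of the wild type controls, the wild type denervated or the knockout denervated samples, or replicate 3 of the knockout controls, with values of 0.85 to 0.92. For Cox4i2 the fit gave 1.25 ± 0.33 (limma adjusted p = 0.0202), but no wild type denervated array and only 1 of 3 arrays in each knockout group detected it at day 14, so the size of that difference is not measured. The call was lost without replicate 2 of either control group or replicate 3 of the knockout denervated samples. For all 4 members the knockout controls of day 14 were lower than the wild type controls, by 0.42 to 0.96, of which 2 values passed the threshold. In denervated muscle of day 14 the knockout minus wild type differences were 0.41 for Cox6a1, 0.39 for Atp5g2 and 0.34 for Atp5j, and none passed. No direction can be read there for Cox4i2.

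**Figure D4:**
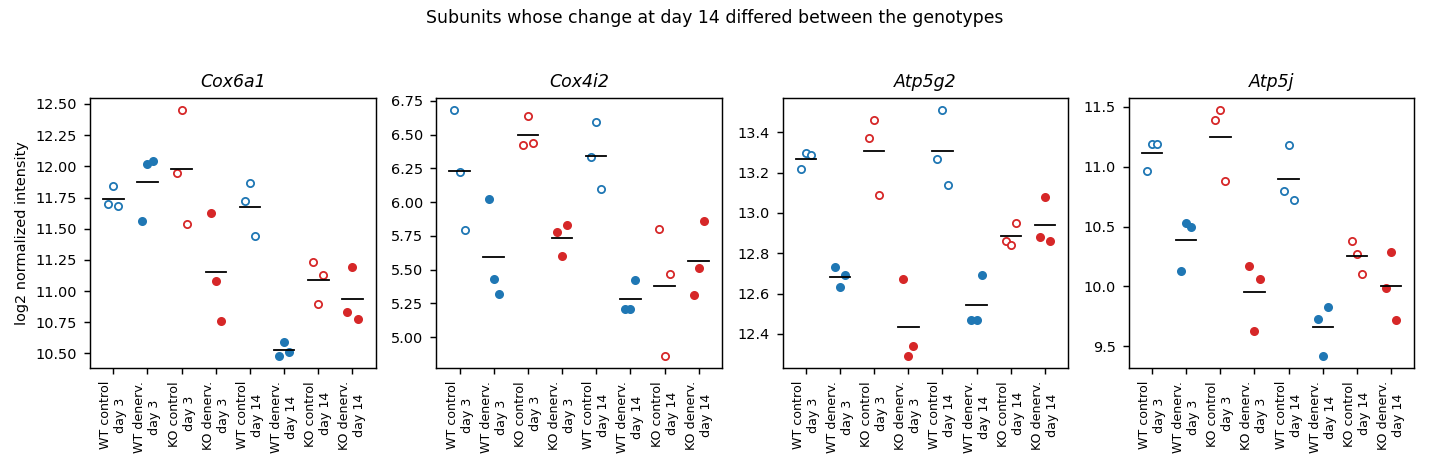
Log2 normalized intensity of Cox6a1, Cox4i2, Atp5g2 and Atp5j in 24 samples; blue is wild type (WT), red knockout (KO), open points controls, filled points denervated, bars group means of 3 samples, and each panel has its own axis. At day 14 the wild type pairs are apart for all 4 transcripts, whereas the knockout pairs overlap and their controls start lower.

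In knockout muscle 9 members had a less negative or more positive change at day 14 than at day 3, where 9.12% of all genes had a positive call and 11.5% a negative one. They were Uqcrb, Cox4i2, Cox8a, Atp5e, Atp5g2, Atp5j, Atp5k, Atp5l and Atp5o, with differences of 0.53 to 1.79. With each array centred on its median instead, 7 members were negative and 1 positive, and only Atp5e was shared. That scaling moved the median over all genes from -0.03 to -0.51 and the median over the members from 0.26 to -0.06, so the members lay above all genes by 0.29 and 0.45. The sign of the members' values therefore depends on the scaling, and their place above the median of all genes does not. With 1 denervated sample left at day 3, the 9 differences were 0.28 to 1.47, all above 0, and none passed (lowest limma adjusted p = 0.0927). The Atp5j difference was -0.02 when both its probes were averaged.

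The members with the brightest probes changed little. The array maxima of raw intensity were 65940 to 72108. The probes of 8 members had a median raw intensity over 40000, a limit set after seeing the data: Cox4i1, Cox5b, Cox6a2, Cox7c, Cox8b, Atp5b, Atp5g3 and Atp5j2. Their median changes were -0.21, -0.35, -0.13 and -0.17, against -0.94, -0.93, -0.90 and -0.84 for the 9 members between 10000 and 20000. Over all genes the median size of change, without sign, was 0.21, 0.14, 0.19 and 0.24 for the 47 genes over that limit and 0.54, 0.54, 0.49 and 0.48 for the 218 between 10000 and 20000. The size did not follow brightness throughout: it was 0.34, 0.32, 0.36 and 0.33 for the 8292 genes under 1000, and 0.49, 0.32, 0.42 and 0.45 for the 90 between 20000 and 40000. Members under 1000 and between 1000 and 10000 had medians of -0.30 and -0.25 in knockout muscle at day 14. Cox5b changed by -0.63, -0.90, -0.69 and -0.40 on its dimmer second probe, against -0.37, -0.38, -0.22 and -0.27 on the probe used. The second Cox7c probe gave -0.23, -0.57, -0.35 and -0.26, against -0.06, -0.45, -0.05 and -0.06. Of the 5 members called in no comparison, Cox6a2, Atp5b and Atp5g3 were among these 8 and Cox6b2 was near background. The part of brightness in these small changes was not tested.

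**Figure D5:**
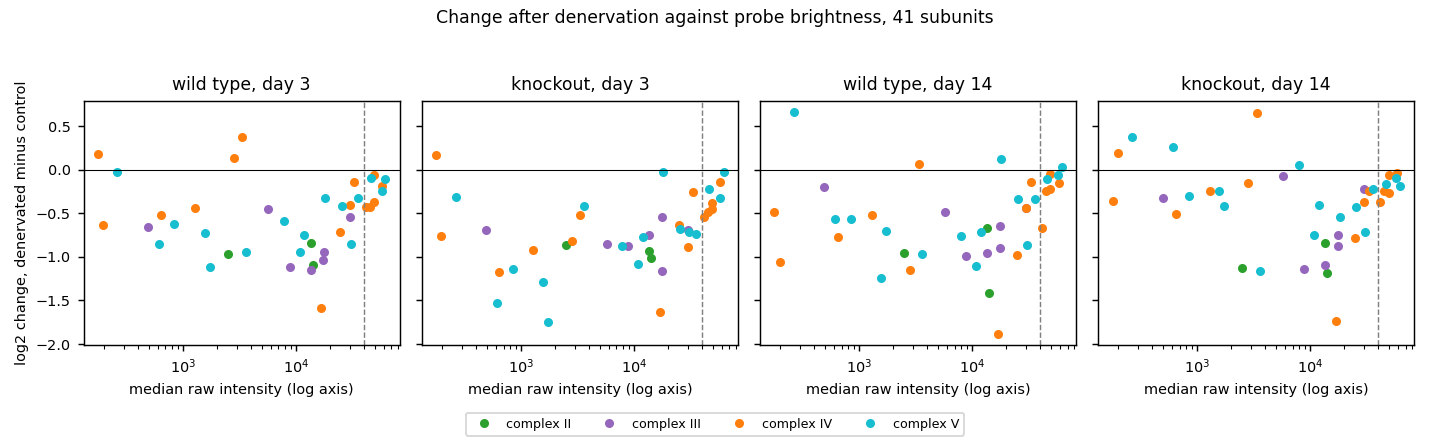
Log2 change of each of 41 subunit transcripts (y axis) against the median raw intensity of its probe over 24 arrays (x axis, log scale), in the 4 denervation comparisons; colours mark the complexes and the dashed line a median intensity of 40000. The 8 points right of the line lie between -0.67 and 0.03, while points between 10000 and 20000 reach -1.88.

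Genes that assemble these complexes were counted from a list of 44, of which 35 were measured. At day 3, 11 fell and 2 rose in wild type muscle, and 18 fell and 1 rose in knockout muscle. At day 14, 17 fell and 2 rose in wild type muscle, and 14 fell and 3 rose in knockout muscle. Shares of all genes that fell were 17.5%, 15.6%, 18.6% and 17.7% in these comparisons, and shares that rose 20%, 20.2%, 22.9% and 19%. The median changes of the assembly factors were -0.26, -0.45, -0.39 and -0.24. Fmc1, an assembly factor of the ATP synthase head, changed by -1.14, -1.32, -1.35 and -0.93, and Cmc2, which helps complex IV form, by -0.79, -1.49, -1.25 and -0.84. The haem A pathway enzyme gene Cox10 and the membrane insertase gene Oxa1l also fell in all 4 comparisons. Cox19, a copper-delivery factor of complex IV, rose in all 4 by 1.14, 0.54, 0.61 and 0.84. Ndufa4, a complex IV subunit outside the symbol rule, fell by 0.48, 0.78, 1.15 and 1.06.

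Markers of mitochondrial content, 13 of 15 measured, fell in 8, 6, 8 and 8 in the same order and rose in 1, 1, 0 and 1. The citrate synthase gene Cs changed by -0.83, -0.40, -0.85 and -1.29 and the muscle ATP carrier gene Slc25a4 by -0.97, -0.98, -2.21 and -1.71, while the other carrier gene Slc25a5 rose at day 3 by 0.78 and 0.36. Of 12 measured regulators of mitochondrial genes, 6, 5, 6 and 6 fell and 1, 2, 1 and 1 rose. Perm1, a muscle regulator of oxidative genes, changed by -4.87, -4.58, -3.55 and -4.83. The coactivator gene Ppargc1a changed by -1.32, -0.94, -1.50 and -1.37 and the receptor gene Esrra by -0.94, -1.58, -1.48 and -0.91. The transcription factor gene Nrf1 was called nowhere, with changes between -0.20 and 0.30.

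Markers of other cells and of slow fibres were counted in the same 4 comparisons, to be read against the shares of all genes just given, and their part in the changes above was not tested. Of 6 measured slow fibre markers, 4, 3, 3 and 2 fell and 0, 1, 0 and 0 rose, and their summed intensity was 94967 to 193789 in controls and 50534 to 118835 in denervated samples. Of 10 measured leukocyte markers none fell and 10, 2, 4 and 9 rose, with sums of 5431 to 16938 in controls and 10297 to 34942 after denervation. Endothelial markers, 8 measured, fell in 6, 1, 5 and 6 and rose in 0, 1, 0 and 0, adipocyte markers, 6 measured, fell in 3, 3, 4 and 1, and Schwann cell markers, 4 measured, fell in 3 each and rose in 0, 1, 0 and 1. Of 8 fibroblast markers 1, 1, 3 and 1 fell and 1, 2, 0 and 0 rose. Of 3 brown adipocyte markers 1 fell and 2 rose in each comparison, and Ucp1 did not pass the detection filter. The skeletal fibre markers, 10 measured, fell in 4, 1, 2 and 4 and rose in 0, 0, 0 and 1, and their sums were 393363 to 487053 in controls and 350844 to 447520 in denervated samples.

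Over the 24 samples most members followed the mean of the others, as a description of arrays that share treatment groups. The correlation with that mean was 0.97 for Uqcr11 and 0.95 for Cox7a1 and Atp5pb, but 0.27 for Atp5b, 0.24 for Atp5c1, 0.21 for Cox8a, 0.11 for Cox6b2 and -0.16 for Atp5o. The 5 genes outside the rule most like the mean of all members were Ndufb10, a complex I subunit gene, at r = 0.979, Mrpl18, a mitochondrial ribosome gene, at 0.977, Sun2, a nuclear envelope gene, at 0.977, Smim20 at 0.974 and Nme3 at 0.972. These values describe 24 samples in 8 groups and carry no test.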

How the data were processed

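Total RNA of 24 triceps surae samples was hybridised to 1-colour Illumina arrays. The authors deposited non-normalized probe intensities with a detection p-value for each probe on each array, per the file headers. The submitters' processing notes name BeadStudio 3.2.3. A further deposited table held processed intensities on a linear scale, with array medians of 13.2 to 13.4 that look background-subtracted and quantile-normalized from their distribution. The non-normalized intensities were processed with neqc of limma 3.58.1 in R 4.3.3, which estimates background from detection p-values by normexp, adds an offset (16), equalises quantiles between arrays and takes log2. Of 46632 probes, 29976 had 1 gene symbol, 10 several and 16646 none, and 29921 were matched by Entrez ID. Probes detected at p under 0.05 on at least 3 arrays were kept (21997), and the brightest probe stood for each of 11317 genes. The means of 8 groups were fitted with limma on 16 residual degrees of freedom, with 12 contrasts and Benjamini-Hochberg adjustment over all genes in each. The median SE was 0.19 for a comparison of 2 groups, and precision is limited by having 3 arrays a group. The limma fit was tested on simulated data for the wild type comparison of day 3. Promoter letters came from the RefSeq table of GRCm38.p6, and 30 of 41 members matched it by symbol.

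The members and gene lists were chosen with earlier results of these data known. Values are given for every complex II member, the isoform pairs, the largest called changes per complex, every member called in a genotype contrast or interaction, and every member called in no denervation contrast. Same-numbered replicates did not deviate together (r from -0.29 to 0.39, with 0 comparisons in which all 3 pairs exceeded 0.1), so the numbers were not taken as pairs. Alternatives covered centring, background correction, the authors' processed values, detection filters, the choice of probe, the number of detected probes as a covariate, a replicate block, fits of fewer groups and leaving out samples.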

Additional observations from a re-analysis of the deposited data

Results flagged for a closer look

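For 4 members the change with denervation at day 14 differed between genotypes by the interaction test, each less negative in knockout muscle: Cox4i2 by 1.25, Cox6a1 by 1, Atp5g2 by 0.81 and Atp5j by 0.99 on the log2 scale. The Cox4i2 size is not measured, since no wild type denervated array of day 14 detected its probe, and Atp5j gave 0.10 when both its probes were averaged. In wild type muscle the Cox6a1 change differed between days, by -1.29 for day 14 minus day 3. In knockout muscle the day 14 change exceeded the day 3 change by 0.79 for Uqcrb, 0.95 for Cox4i2, 1.17 for Cox8a, 1.79 for Atp5e, 0.92 for Atp5g2, 1.04 for Atp5j, 1.33 for Atp5k, 0.53 for Atp5l and 0.69 for Atp5o. The Atp5j value was -0.02 when both its probes were averaged. Of the denervated knockout samples of day 3 that enter all 9 values, 2 detected more probes than any other day 3 array. With 1 sample left in that group the 9 values were 0.28 to 1.47 and none passed the limma test.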

How the results depend on the processing

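Counts are members called of 41. With median centring, 1 was called between genotypes in controls of day 14, 0 in denervated muscle of day 3 and 2 in the genotype interaction of day 14. With that setting the median change over all genes was 0.45 in knockout muscle at day 3, against 0.04 in the main fit. In the order wild type day 3, wild type day 14 and knockout day 14 it was 0.19, 0.12 and -0.02. The main values there were 0.01, 0.05 and 0.03. Without background correction the genotype counts were 4 (controls, day 14), 6 (denervated, day 3) and 1 (denervated, day 14). The authors' processed values, no filter and the mean of probes each gave 1 and 1 for the first 2 of these, and the mean of probes gave 2 for the interaction of day 14 and 5 for the day interaction in knockout muscle. Probes detected on all 24 arrays gave 5 in denervated muscle of day 3, 1 at day 14 and 2 for the day interaction in wild type. With the number of detected probes as a covariate, 12 were called for denervation in knockout muscle at day 3, 4, 0 and 4 between genotypes in controls of day 14 and denervated muscle of days 3 and 14, 8 for the interaction of day 14 and 3 for the day interaction in knockout muscle. Fits of only the groups compared gave 0 and 0 between genotypes in controls of day 14 and denervated muscle of day 3, and 2 and 3 for the day interactions in wild type and knockout muscle. Without replicates 2 and 3 of the denervated knockout samples of day 3, 1 sample is left there, assumed to vary like the other groups. The median member change in knockout muscle at day 3 was then -0.54, against -0.74 in the main fit. The 9 members called in the day interaction of knockout muscle then had values of 0.28 to 1.47. The replicate block gave 1 between genotypes in controls of day 14, and 27, 32, 26 and 18 for denervation in the order used above. The cause of these changes was not tested. With 1 sample left out, denervation counts were 22 to 24, 31 to 33, 20 to 28 and 14 to 19. Genotype counts were 0 to 1 and 0 to 2 in controls of days 3 and 14 and 0 to 7 and 0 to 0 in denervated muscle. The interactions gave 0 to 5 at day 3 and 1 to 5 at day 14, and the day interactions 1 to 1 and 5 to 17. The highest counts of 5 at day 3 and 17 came without replicate 3 of the knockout controls of day 3, and the 7 without replicate 1 of the denervated knockout samples of day 3. The Cox6a2 minus Cox6a1 difference was 0.05 with median centring and 0.31 to 0.42 with 1 sample left out, and the Cox4i2 minus Cox4i1 difference was 0.16 without background correction (exact permutation, adjusted p = 0.027), opposite in sign to its main value. For single members, the Atp5j day interaction in knockout muscle was -0.02 with the mean of probes, and the Cox6a1 change in knockout muscle at day 3 was 0.08 with the covariate. Under every alternative run, 18 of 27, 10 of 32, 19 of 26 and 12 of 20 denervation calls held. Chosen after seeing the data, the dimmest probe detected on all arrays gave 25, 33, 25 and 18, and leaving out the 8 brightest members gave 24, 27, 25 and 17. Probes near background (Cox4i2, Cox6b2), the dim Atp5o probe and probes near the top of the scale limit what can be read.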
